A study of Mus musculus with 21 samples.

Results

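The genes described here are 41 genes of DNA replication and mitosis, 20 with a role in the licensing, start or running of DNA replication and 21 with a role in mitosis. They were taken by gene symbol from a fixed list, and each had 1 row among the 23827 rows (23351 gene symbols) of the deposited expression tables. The samples came from mouse embryos at embryonic day 14.5 that carried 1 copy of Gt(ROSA)26Sor-mCherry-Rpl10a, an allele in which Cre recombination switches on a ribosomal protein, Rpl10a, fused to the red fluorescent protein mCherry. Tagged ribosomes were pulled down with the RNA bound to them, so that RNA under translation in the recombined cells, the translatome, could be compared with total RNA, the transcriptome.

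There were 7 groups of 3 samples. With Sox2Cre+/-;Gt(ROSA)26Sor-mCherry-Rpl10a+/-, in which recombination covers all tissues derived from the epiblast, the transcriptome and the translatome were taken from the same tissue samples of forebrain and of kidney (4 groups). With Cdh5CreERT2+/-;Gt(ROSA)26Sor-mCherry-Rpl10a+/-, whose Cre is active in endothelial cells after tamoxifen, the endothelial cell (EC) translatome was taken from forebrain and kidney (2 groups). With Emx1Cre+/-;Gt(ROSA)26Sor-mCherry-Rpl10a+/-, which recombines in the dorsal telencephalon, the translatome of the Emx1-lineage was taken from forebrain (1 group). The tagged allele came from 1 targeted clone of embryonic stem cells and was driven by the ubiquitous CAGGS promoter, a sample could pool organs of more than 1 embryo, and the brain tissue included part of the diencephalon. All embryos carried a Cre and the tagged allele, and there was no library from embryos without Cre, so the RNA that binds the beads unspecifically was not measured.

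In a dividing cell, origins of replication are licensed in G1 by loading of the Mcm2-7 helicase, DNA is copied in S phase by polymerases held on the sliding clamp Pcna, and the copies are separated in mitosis under the control of cyclin-dependent kinases and the spindle checkpoint. Many genes of the first set are switched on by E2F factors at the start of S phase, and many of the second set later, in G2, by complexes that bind CHR (cell cycle genes homology region) and CCAAT elements. At this age, dividing cells of the forebrain are found mainly in the ventricular and subventricular zones beside many postmitotic neurons, while nephron progenitors, the ureteric bud and the stroma of the kidney still divide. In bulk tissue, fewer cycling cells and less of these RNAs in each cycling cell cannot be told apart.

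Promoters are printed for 5 genes to show the letters by which the replication and the mitosis genes differed. Promoters of 34 of the 41 genes were matched in RefSeq (build GRCm38.p6), 17 of the replication and 17 of the mitosis genes. The other 7 were Gmnn, Ccna2, Aurkb, Tpx2, Foxm1, Mcm4 and Ccne2. Each of the 5 runs below covers the 250 bases before the RefSeq start of the gene, 5′ to 3′ on the strand of the gene: Mcm5 (chr8:75109259-75109508, + strand) and Mcm6 (chr1:128359706-128359955, - strand), subunits of the replicative helicase; Cdk1 (chr10:69352913-69353162, - strand), the kinase that drives entry into mitosis; Cdc20 (chr4:118437344-118437593, - strand), which activates the ligase that ends mitosis; and Top2a (chr11:99024190-99024439, - strand), the topoisomerase that untangles sister DNA. Capitals mark E2F-type sites, CHR elements and CCAAT boxes on either strand, so that a box on the opposite strand reads ATTGG and a CHR on the opposite strand reads TTCAAA. The starts in GENCODE vM21, from which gene positions are given, lie 60 and 41 bases further downstream for Mcm5 and Mcm6, 26 and 9 bases upstream for Cdk1 and Cdc20, inside their printed runs, and at the same base for Top2a.
Mcm5: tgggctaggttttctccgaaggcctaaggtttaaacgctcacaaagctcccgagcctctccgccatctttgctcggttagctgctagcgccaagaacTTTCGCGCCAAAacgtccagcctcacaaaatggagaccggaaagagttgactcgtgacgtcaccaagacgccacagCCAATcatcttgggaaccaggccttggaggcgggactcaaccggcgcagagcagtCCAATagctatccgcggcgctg
Mcm6: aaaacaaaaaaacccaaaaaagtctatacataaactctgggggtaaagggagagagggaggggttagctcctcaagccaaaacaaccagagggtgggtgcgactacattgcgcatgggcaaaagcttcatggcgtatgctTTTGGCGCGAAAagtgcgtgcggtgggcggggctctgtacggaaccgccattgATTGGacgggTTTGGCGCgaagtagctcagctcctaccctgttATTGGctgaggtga
Cdk1: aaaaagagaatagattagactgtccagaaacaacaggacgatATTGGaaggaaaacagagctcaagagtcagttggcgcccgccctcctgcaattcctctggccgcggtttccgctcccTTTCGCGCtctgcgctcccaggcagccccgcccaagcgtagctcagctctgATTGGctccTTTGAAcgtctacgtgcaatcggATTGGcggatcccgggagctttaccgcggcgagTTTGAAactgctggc
Cdc20: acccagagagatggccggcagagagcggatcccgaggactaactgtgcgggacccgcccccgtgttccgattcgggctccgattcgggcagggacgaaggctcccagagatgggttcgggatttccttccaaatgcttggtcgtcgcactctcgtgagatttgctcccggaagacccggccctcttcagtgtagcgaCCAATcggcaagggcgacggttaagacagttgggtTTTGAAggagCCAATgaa
Top2a: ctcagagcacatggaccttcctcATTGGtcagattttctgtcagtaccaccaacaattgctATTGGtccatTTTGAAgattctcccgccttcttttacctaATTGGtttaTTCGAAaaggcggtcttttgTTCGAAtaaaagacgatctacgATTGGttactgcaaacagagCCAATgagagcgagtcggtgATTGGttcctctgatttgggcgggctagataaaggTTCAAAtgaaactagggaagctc

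An E2F-type site was searched as TTTGGCGC, TTTCCCGC, TTTGCCGC or TTTCGCGC, a CHR as TTTGAA or TTCGAA, and a CCAAT box as CCAAT, each on both strands over the 300 bases from 250 before to 50 after the start. Sites could overlap, as TTTCGCGC and the reverse of TTTGGCGC did in Mcm5, and TTTGGCGC and the reverse of TTTCGCGC in Mcm6. Genes of the set were counted once if any of their promoters held the letters, while the share of all was counted over single promoters. An E2F-type site was present for 8 of 17 replication genes (47.1%) and for 1 of 17 mitosis genes (5.88%, Cdk1), against 2.26% of all 32851 promoters. A CHR was present for 2 of 17 replication genes (11.8%) and for 12 of 17 mitosis genes (70.6%), against 19.2% of all promoters. CCAAT boxes were present in 11 of 17 (64.7%) and 14 of 17 (82.4%), against 37.4% of all. Within the upstream 250 bases alone the CHR count of the mitosis genes was 6 of 17, against 17.1% of all promoters, because the other matches reached past the start. These matches describe letters and are not evidence of binding.

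All 41 genes were measured in every sample. Total reads per sample ranged from 21760652 to 79231692 (median 43190754), and no gene of the set had fewer than 100 reads in any sample; the lowest count was 122 reads on Orc1, in a brain translatome sample. Levels are given as RPKM, reads scaled by the length of the transcript and by the reads of the sample, and so as a share of the reads. Differences between groups are log2 fold changes of the read counts from edgeR with their standard error (SE), which are relative to the typical row (TMM scaling), and a gene was called higher or lower at a Benjamini-Hochberg adjusted p under 0.001 over all rows. Both scales are used because highly expressed RNAs took a larger share of the reads in the EC samples: the 100 highest rows held 17.1% to 17.6% of the reads in brain EC and 19.2% to 20.1% in kidney EC, against 12.2% to 13.3% in the other groups. Groups shared a sequencing run only where translatome was compared with transcriptome; in the other comparisons run and group cannot be told apart.

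The kidney held more of these RNAs than the forebrain in both total and ribosome-bound RNA. Scaled to equal sample totals (RPM), the 41 genes together took 3462 to 4042 RPM in the brain transcriptome and 7558 to 7764 in the kidney transcriptome, 2454 to 3007 in the brain translatome and 5635 to 6015 in the kidney translatome, 3340 to 3784 in brain EC and 5888 to 6352 in kidney EC, and 3050 to 3405 in the Emx1-lineage. Every kidney sample was above every forebrain sample. By the median RPKM of the 41 genes, the order was kidney transcriptome (55.6 ± 3.60, SD, n = 3), kidney EC (46.1 ± 1.51), kidney translatome (45.2 ± 0.85), brain EC (29.5 ± 1.77), Emx1-lineage (27.5 ± 0.82), brain transcriptome (26.96 ± 2.08) and brain translatome (23.8 ± 1.15). The samples of kidney EC and of the kidney translatome overlapped, and so did those of brain EC, the Emx1-lineage and the brain transcriptome.

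**Figure D1:**
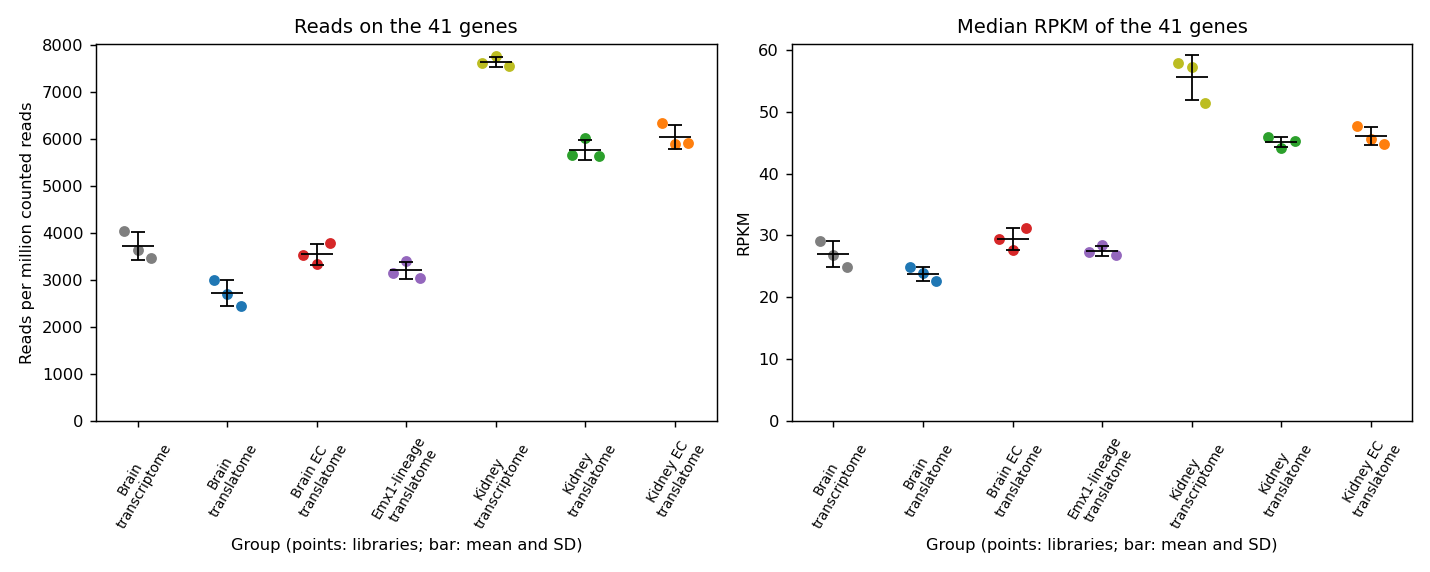
Reads on the 41 replication and mitosis genes together in RPM (left) and the median RPKM of the 41 genes (right), one point per sample in the 7 groups. The 9 kidney samples lie between 5635 and 7764 RPM, all above the 12 forebrain samples, which lie between 2454 and 4042.

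Single genes followed the same order in most cases: 30 of the 41 had their highest mean RPKM in the kidney transcriptome, 6 in the kidney translatome and 5 in kidney EC, and 30 had their lowest in the brain translatome. The least abundant in every group was Orc1, the largest subunit of the origin recognition complex, from 1.41 RPKM in the brain translatome to 7.76 in the kidney transcriptome. The most abundant was Top2a in the transcriptomes (85.4 RPKM in brain, 156.2 in kidney). In the translatomes the most abundant was Cenpa, the histone H3 variant of centromeres, or Birc5, the survivin subunit of the chromosomal passenger complex: Cenpa led in the brain translatome (57.5) and the Emx1-lineage (66.7), and Birc5 in brain EC (84.9), the kidney translatome (166.9) and kidney EC (169.6).

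The comparison of translatome with transcriptome asks which RNAs of the set are over- or under-represented on tagged ribosomes relative to total RNA of the same tissue. The paper raises the possibility that the level of the tagged protein, or the share of ribosomes it labels, varies with cell state or cell type. The part of such labelling in these differences was not tested. In the brain, 16 of the 41 genes were lower and 2 higher in the translatome, where 18.5% of all rows were called lower and 18.6% higher. In the kidney, 24 were lower and 4 higher, against 15.8% and 14.9% of all rows. The median log2 fold change of the 41 genes was -0.31 in brain and -0.39 in kidney, beside medians of -0.01 and -0.03 over all rows, and 33 of 41 values were below 0 in each organ. By RPKM, 26 genes had all brain translatome values below all transcriptome values and 3 had all above (32% and 28.8% of all rows), and in kidney the counts were 28 and 4 (29.8% and 27% of all rows). Since transcriptome and translatome came from the same tissue samples, the pairing was also fitted: it gave 24 lower and 3 higher genes in brain (22.8% and 23.1% of all rows), and 29 lower and 6 higher in kidney (25.1% and 24% of all rows). Calls of single genes in this comparison are from the fit without the pairing, unless the pairing is named. Within 1 sequencing run only 1 brain transcriptome sample could be set against 3 translatome samples, and 3 kidney transcriptome samples against 1, on the assumption that the lone sample varies like the others. The counts were then 11 lower and 1 higher in brain (13.8% and 12.4% of all rows) and 17 lower and 2 higher in kidney (9.36% and 10.2% of all rows).

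The largest single decreases were in mitosis genes, though not all mitosis genes were lower: in kidney, Cenpa and Birc5 were higher (0.79 and 0.46). Cenpf (chr1:189640606-189688086, - strand), a large kinetochore protein, had 16.6, 14.4 and 15.0 RPKM in the brain transcriptome and 5.59, 4.95 and 4.79 RPKM in the brain translatome. In the kidney it had 26.5, 27.2 and 24.0 RPKM in the transcriptome and 30.1, 33.9 and 26.2 RPKM in the translatome. The brain groups lay far apart and the kidney groups overlapped: the log2 fold change was -1.55 ± 0.07 in brain (edgeR, adjusted p = 3.6e-10) and 0.22 ± 0.08 in kidney (adjusted p = 0.053). The difference between organs was itself past the threshold (1.79 ± 0.13, kidney minus brain, edgeR interaction, adjusted p = 2.8e-07).

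Mki67 (chr7:135689784-135716361, - strand), the Ki-67 protein that coats mitotic chromosomes and is the usual marker of cycling cells, was lower on ribosomes in both organs. It had 51.9, 39.8 and 42.4 RPKM in the brain transcriptome and 33.2, 27.8 and 25.4 in the brain translatome. In the kidney it had 84.4, 80.6 and 87.1 RPKM in the transcriptome and 30.9, 32.4 and 33.7 in the translatome. The groups did not overlap in either organ, and the kidney decrease was the larger in size (-1.38 ± 0.06, adjusted p = 5e-08, against -0.61 ± 0.10 in brain, adjusted p = 0.00013), and the difference between organs passed the threshold with the pairing of tissue samples in the fit (-0.75 ± 0.07, adjusted p = 7.3e-11) but not without it (-0.75 ± 0.14, adjusted p = 0.0013). The kidney transcriptome exceeded the brain transcriptome in Mki67 by 0.72 ± 0.10, while the translatomes of kidney and brain differed by -0.03 ± 0.08 (edgeR, adjusted p = 0.75).

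Cenpe, the kinetochore motor that carries chromosomes to the spindle equator, and Bub1, a kinase of the spindle checkpoint, were the next in size in brain. Cenpe had 14.1, 11.54 and 11.6 RPKM in the brain transcriptome against 7.64, 6.10 and 5.31 in the translatome. Bub1 had 14.1, 12.4 and 12.8 RPKM against 7.55, 7.44 and 5.61. All translatome values of both genes were below all transcriptome values, with log2 fold changes of -0.94 ± 0.11 and -0.90 ± 0.10 in brain, and of -0.58 ± 0.06 and -0.32 ± 0.04 in kidney.

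Ccnb1, the cyclin partner of Cdk1 in mitosis, and Top2a were lower in both organs. Ccnb1 had 11.9, 10.9 and 10.5 RPKM in the brain transcriptome and 6.43, 6.02 and 5.73 in the translatome, and 21.9, 23.3 and 22.1 against 16.6, 18.8 and 16.0 RPKM in kidney. Top2a had 94.6, 81.5 and 80.1 RPKM against 54.6, 46.9 and 44.3 in brain, and 155.4, 162.9 and 150.3 against 94.6, 101.0 and 92.0 in kidney. None of these groups overlapped. The log2 fold changes were -0.84 ± 0.08 and -0.39 ± 0.07 for Ccnb1 and -0.78 ± 0.08 and -0.70 ± 0.06 for Top2a, in brain and kidney. Foxm1, the transcription factor of the G2 and M program, was lower in both organs (-0.77 ± 0.07 in brain and -0.22 ± 0.04 in kidney), and this difference between organs was past the threshold (0.57 ± 0.09, adjusted p = 0.00025).

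Not every mitotic regulator passed the test. Cdk1 had 27.5, 27.1 and 24.6 RPKM in the brain transcriptome and 24.9, 22.7 and 20.6 in the translatome, and 62.1, 68.5 and 62.0 against 59.4, 62.1 and 55.4 in kidney. The groups overlapped in both organs and the log2 fold changes of -0.19 ± 0.07 and -0.12 ± 0.05 did not pass the threshold (adjusted p = 0.03 and 0.085). The checkpoint genes Bub1b (-0.05 and -0.12) and Mad2l1 (0.03 and 0.16) did not pass it either.

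Among the licensing genes, the Mcm2-7 helicase subunits were below their transcriptome level in both organs. Mcm2 had 44.6, 40.6 and 37.0 RPKM in the brain transcriptome and 35.3, 31.0 and 26.9 in the translatome, and 88.4, 88.1 and 86.7 against 57.6, 60.6 and 59.4 in kidney. The groups did not overlap, but in brain the difference of -0.36 ± 0.08 missed the threshold (adjusted p = 0.0021) while in kidney -0.57 ± 0.04 passed it (adjusted p = 8.4e-07). Over the 6 subunits the log2 fold changes ran from -0.24 to -0.48 in brain, with Mcm3 and Mcm6 called, and from -0.44 to -0.60 in kidney, with all 6 called. Rrm1 and Rrm2, the subunits of the reductase that makes deoxynucleotides, were lower in both organs (-0.49 and -0.57 in brain, -0.59 and -0.45 in kidney), and Pcna did not pass the test in either (0.15 ± 0.11 and -0.11 ± 0.09). Pcna had 44.8, 40.2 and 37.6 RPKM in the brain transcriptome and 55.3, 38.8 and 39.1 in the translatome, and 77.6, 88.2 and 70.0 against 66.9, 83.3 and 68.5 in kidney, with overlap in both.

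Gmnn and Cenpa were higher on ribosomes in both organs. Gmnn, geminin, which prevents relicensing by binding Cdt1, had 18.6, 18.3 and 15.7 RPKM in the brain transcriptome and 30.8, 25.5 and 24.7 in the translatome, and 39.8, 40.99 and 38.9 against 58.9, 74.8 and 70.2 in kidney. Cenpa had 39.7, 39.0 and 35.6 RPKM against 61.0, 55.4 and 56.1 in brain, and 74.6, 86.5 and 77.1 against 137.1, 147.9 and 125.5 in kidney. No groups overlapped, and the log2 fold changes were 0.65 ± 0.10 (adjusted p = 4e-05) and 0.77 ± 0.08 (adjusted p = 1.5e-05) for Gmnn and 0.62 ± 0.06 (adjusted p = 6.7e-07) and 0.79 ± 0.07 (adjusted p = 3.9e-06) for Cenpa, in brain and kidney.

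In the fit without the pairing, the threshold was also passed upward in kidney alone by Birc5 (0.46 ± 0.05) and by E2f1, an activator of S phase genes (0.29 ± 0.05). The brain values of Birc5 and E2f1 were 0.25 ± 0.06 and -0.08 ± 0.07. Their differences between organs were not past the threshold (adjusted p = 0.06 and 0.0036), though with the pairing that of E2f1 was (0.39 ± 0.08, adjusted p = 9.4e-05). For Birc5 the transcript length that links reads to RPKM was 1284 to 1331 bases in the brain transcriptome, 1163 to 1195 in the kidney transcriptome and 983 to 991 in the translatome groups, so that its log2 ratio of RPKM (0.62 in brain, 0.71 in kidney) was larger than that of its reads. For the other 40 genes this length changed by a ratio of at most 1.04.

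**Figure D2:**
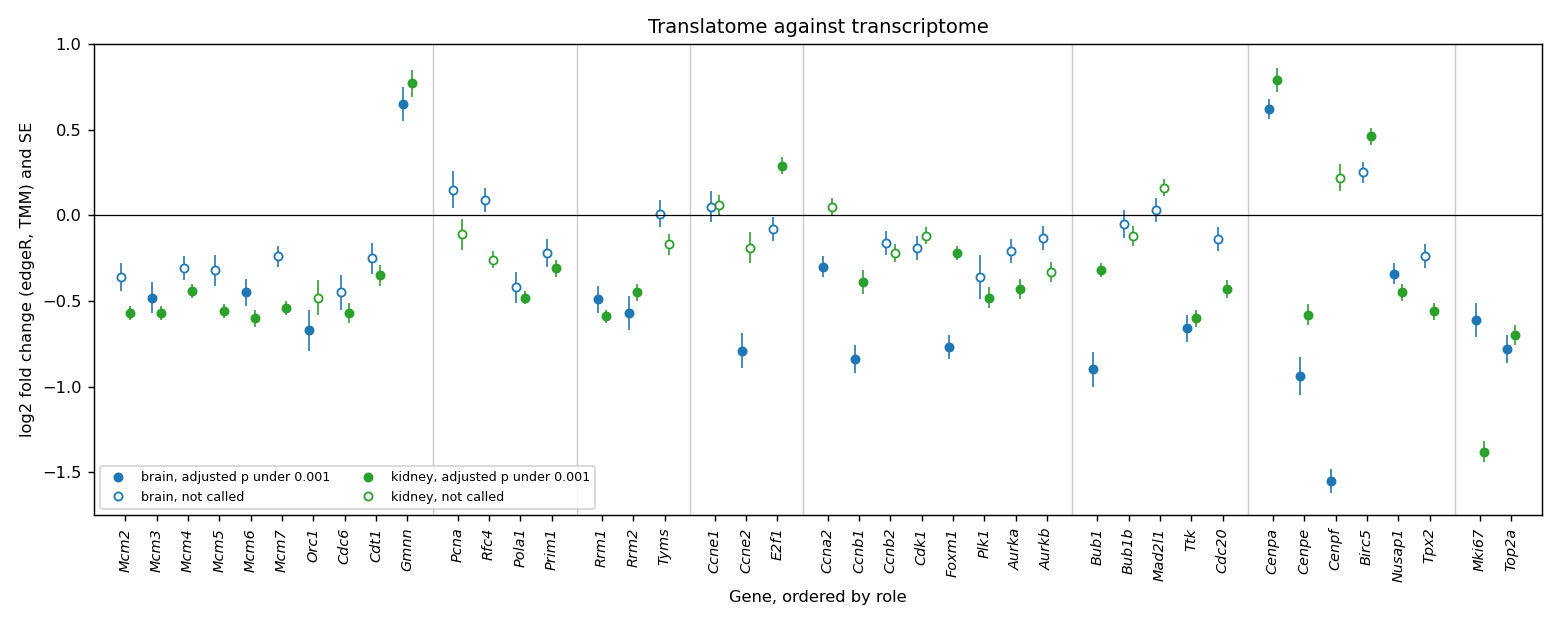
Log2 fold change of translatome over transcriptome with its SE for each of the 41 genes, ordered by role, in brain (blue) and kidney (green). Filled points passed an adjusted p under 0.001. Gmnn and Cenpa are above 0 in both organs, and Cenpf stands apart at -1.55 in brain and 0.22 in kidney.

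Over the whole set, 2 of 41 genes differed between organs in this comparison (Cenpf and Foxm1, both with the lesser decrease or none in kidney), against 4.12% of all rows called in that direction and 2.35% in the other. The count of the set was thus near the share of all rows. With the pairing of tissue samples in the fit, 8 genes were called with the higher value in kidney (Cenpf, Ccne2, Bub1, Foxm1, Ccnb1, E2f1, Cenpe and Ccna2) and 3 with the higher value in brain (Mki67, Tpx2 and Mcm7), where 9.84% and 7.3% of all rows were called, so that the share of the set called higher in brain was at the level of all rows. Transcript length moved with the ribosome-bound share: over the 41 genes, from 985 to 11212 bases (median 2774), log2 fold change and log10 length had Pearson's r of -0.70 in brain and -0.53 in kidney (Spearman's rho -0.65 and -0.54), a description over genes measured in the same libraries. Over all mRNA rows with a mean transcriptome level over 1 RPKM, the median log2 fold change went from 0.88 in the shortest of 10 length groups of equal size to -0.42 in the longest in brain, and from 0.60 to -0.215 in kidney. Set against rows of their own length, 38 of 41 genes in brain and 35 of 41 in kidney lay below the median of their length group, by a median of -0.37 and -0.41. The part of length in these differences was not tested further. Erythroid RNA was also lower in the translatomes: the summed RPKM of 5 erythroid markers was 44.7 to 82.2 in the brain transcriptome and 17.0 to 19.8 in the translatome, and 73.0 to 118 against 14.5 to 22.1 in kidney. Of these markers 3 of 5 were lower in each organ, none was at 0 in every sample, and their part in the result was not tested.

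**Figure D3:**
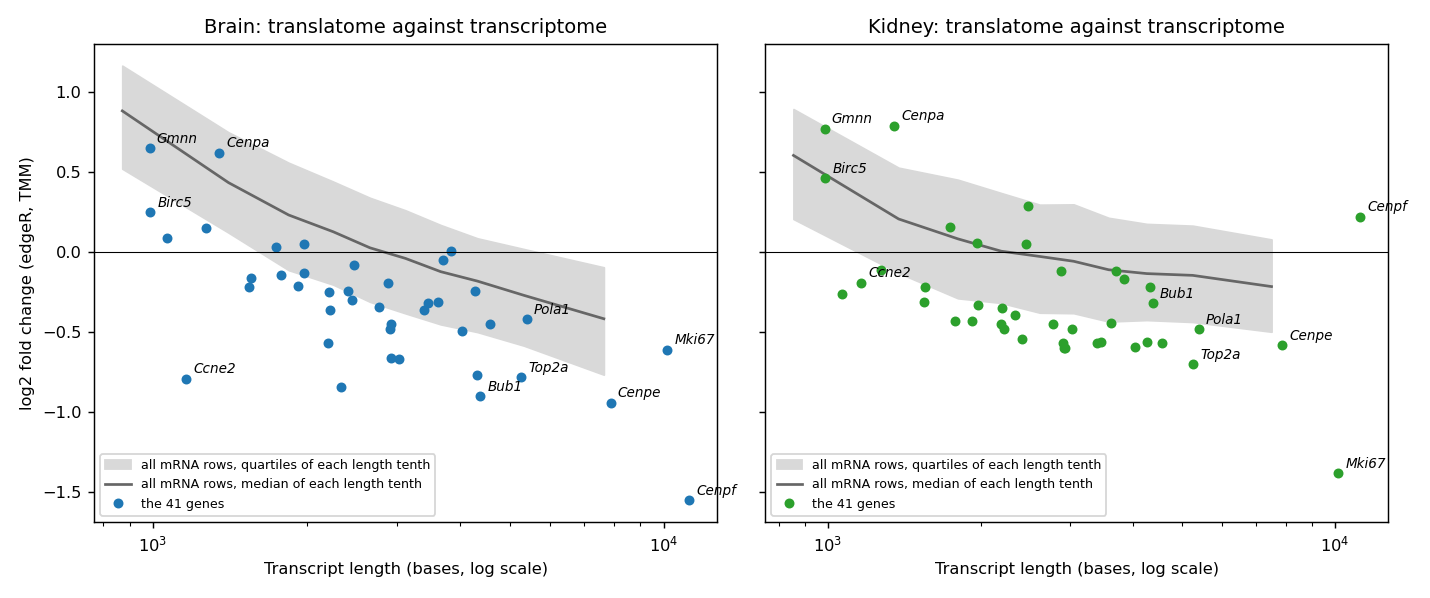
Log2 fold change of translatome over transcriptome against transcript length (log axis) for the 41 genes in brain and kidney, with the median and quartiles of all mRNA rows in 10 groups of length. In both organs most of the 41 genes lie below the median of rows of their length, 38 in brain and 35 in kidney.

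Related genes outside the set were counted in the same way, beside 18.5% lower and 18.6% higher of all rows in brain and 15.8% and 14.9% in kidney. Of 37 other replication genes, 10 were lower and 6 higher in the brain translatome, and 15 lower and 5 higher in kidney, with the higher counts near the share of all rows. Cdc7, the kinase that fires licensed origins, was lower in both (mean 22.1 to 7.93 RPKM in brain and 28.1 to 11.7 in kidney), and Rpa3, the small subunit of the single-strand binding protein, was higher in both (log2 fold changes of 1.17 and 1.23). Of 50 other mitosis genes, 27 were lower and 5 higher in brain and 31 lower and 4 higher in kidney; the condensin subunit Ncapg had -1.59 and -0.99. Of 11 G1 cyclins, kinases and E2F factors, 4 were lower and 1 higher in brain and 1 lower and 2 higher in kidney, and Cdk4, the kinase of D-type cyclins, was higher in both (400.8 to 638.6 RPKM and 519.5 to 830.9 RPKM). Of 14 inhibitors and pocket proteins, 4 were higher and 2 lower in brain and 6 higher and 2 lower in kidney.

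The EC translatomes were set against the translatome of the whole organ, which shares the pull-down. The Cre driver changed with the cell population, here and in the Emx1-lineage, and the EC driver alone needed tamoxifen. Their parts cannot be told apart from that of the population. The label of these groups was matched by their markers: all 8 endothelial markers were higher in both EC groups, with summed RPKM of 2176 to 2228 in brain EC against 117 to 133 in the brain translatome and of 1935 to 2285 in kidney EC against 355 to 378 in kidney. Organ RNA was still present. The 8 neuron markers summed to 468 to 608 RPKM in brain EC (2924 to 2963 in the organ), and Tubb3, a neuronal tubulin, had a mean of 289.6 RPKM there. The 8 neural progenitor markers summed to 1707 to 1862 RPKM in brain EC against 1574 to 1710 in the organ, with 3 higher and 5 lower, and Sox2, which marks neural stem cells, fell from a mean of 103.7 to 33.6 RPKM. The same 8 markers also summed to 1035 to 1075 RPKM in kidney EC against 393.2 to 408.5 in the kidney translatome. Their sum is therefore not a measure of neural RNA alone in EC samples. In kidney EC, 8 nephron markers summed to 85.7 to 96.7 RPKM (393 to 421 in the organ), 6 ureteric bud markers to 38.6 to 44.1 (121.5 to 164) and 5 stroma markers to 127 to 194 (333 to 450). How much of the replication and mitosis RNA in the EC samples came from other cells was not tested.

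In brain EC, 32 of the 41 genes were higher and none lower than in the brain translatome, where 24.8% of all rows were higher and 21.4% lower (edgeR; at an unadjusted p under 0.05, 35 higher and 1 lower against 33.7% and 32.3% of all rows, and with DESeq2 33 higher and none lower against 26.2% and 23.5%). The median log2 fold change was 0.78 (-0.01 over all rows). By role, 9 of 10 licensing genes were higher (median 0.99), 1 of 4 replication fork genes (0.07), 2 of 3 deoxynucleotide genes, 2 of 3 G1/S regulators, 7 of 8 cyclins, kinases and Foxm1 (0.81), all 5 checkpoint genes (0.78), 5 of 6 centromere and spindle genes and 1 of the 2 genes of the mitotic chromosome. With scaling by total reads, 22 were higher and 1 lower (Rfc4, a subunit of the clamp loader, at -0.47), against 17.8% and 31.4% of all rows, and by RPKM alone 27 genes had all EC values above all organ values and 4 all below (25.7% and 44.4% of all rows).

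Among called genes with a mean of at least 5 RPKM, the largest differences were in Cenpe, Mcm3 and Cdk1. Cenpe had 14.3, 11.8 and 15.4 RPKM in brain EC and 7.64, 6.10 and 5.31 in the brain translatome. Mcm3 had 59.4, 54.1 and 63.4 RPKM against 32.1, 28.3 and 24.1. Cdk1 had 47.1, 45.3 and 51.2 RPKM against 24.9, 22.7 and 20.6. Each EC sample was above each organ sample in all 3 genes, with log2 fold changes of 1.41 ± 0.12 (adjusted p = 3.1e-07), 1.36 ± 0.10 (4.2e-08) and 1.36 ± 0.08 (4.9e-09).

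Other Mcm subunits rose by 0.82 (Mcm2), 1.03 (Mcm4), 0.99 (Mcm5) and 1.20 (Mcm6), except Mcm7 (0.06 ± 0.08, adjusted p = 0.55), whose exons overlap those of Cops6 and Ap4m1 on the opposite strand by 64 and 321 bases in reads counted without strand. Mcm2 had 45.2, 43.7 and 45.9 RPKM in brain EC, all above the organ values of 26.9 to 35.3. Orc1 was higher by 1.44 ± 0.12 at a low level (3.07, 3.23 and 3.10 RPKM against 1.58, 1.33 and 1.31).

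The marker of cycling cells did not follow. Mki67 had 26.2, 24.7 and 27.8 RPKM in brain EC against 33.2, 27.8 and 25.4 in the organ, so that the groups overlapped, with a log2 fold change of 0.16 ± 0.09 (adjusted p = 0.16). Ccnb1 (5.95, 5.36 and 5.89 RPKM in EC, against 6.43, 6.02 and 5.73) and Pcna (42.7, 40.2 and 44.3 against 55.3, 38.8 and 39.1) overlapped as well, at 0.21 ± 0.09 and 0.22 ± 0.12, and neither passed the threshold. Top2a was higher by 0.63 ± 0.12 (adjusted p = 0.00043), with 61.8, 50 and 72.7 RPKM against 54.6, 46.9 and 44.3. Its RPKM values overlapped between groups. The others not called were Prim1 (-0.08), Rfc4 (-0.18), Rrm2 (0.36), E2f1 (0.35) and Cenpa (0.06).

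In kidney EC, 27 genes were higher and 1 lower than in the kidney translatome, against 16.7% and 15% of all rows, and this count depended on the scaling. The median log2 fold change was 0.39 (-0.04 over all rows). With scaling by total reads 5 were higher and 3 lower, against 8.26% and 29.9% of all rows, and the median of the 41 genes was 0.03 beside -0.41 over all rows. The distance between the set and the median row was 0.44 with both scalings. By RPKM, 12 genes had all EC values above all organ values and 10 had all EC values below (15% and 50% of all rows). By role, 8 of 10 licensing genes were higher, none of 4 fork genes, 2 of 3 deoxynucleotide genes, none of 3 G1/S regulators, of which 1 was lower, 7 of 8 cyclins, kinases and Foxm1, 4 of 5 checkpoint genes, 4 of 6 centromere and spindle genes, and both Mki67 and Top2a.

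Mki67 had the largest increase in kidney EC (1.01 ± 0.11, adjusted p = 1.3e-05), with 56.3, 41.8 and 54.7 RPKM against 30.9, 32.4 and 33.7 in the organ. Cenpe followed (27.3, 20.6 and 24.98 RPKM against 17.8, 18.3 and 15.9) and then Cdk1 (80.0, 81.7 and 71.7 against 59.4, 62.1 and 55.4), at 0.84 ± 0.10 and 0.76 ± 0.07. None of these groups overlapped, and all 3 genes were also called with scaling by total reads. Ccne1, cyclin E1, which drives entry into S phase, was the one gene lower in kidney EC (-0.46 ± 0.06, adjusted p = 7.7e-05), with 27.4, 26.4 and 26.5 RPKM against 50.2, 46.4 and 45.3.

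Mcm2 (61.9, 60.7 and 59.2 RPKM in kidney EC against 57.6, 60.6 and 59.4) and Top2a (113.2, 91.1 and 107.6 against 94.6, 101.0 and 92.0) were called by edgeR at 0.39 ± 0.05 and 0.47 ± 0.09, though their RPKM values overlapped. Ccnb1 (16.6, 16.3 and 13.7 against 16.6, 18.8 and 16.0) and Pcna (63.2, 60.7 and 59.5 against 66.9, 83.3 and 68.5) were not called, at 0.21 ± 0.09 and 0.10 ± 0.08. The Pcna values of kidney EC were all below those of the organ on the RPKM scale.

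**Figure D4:**
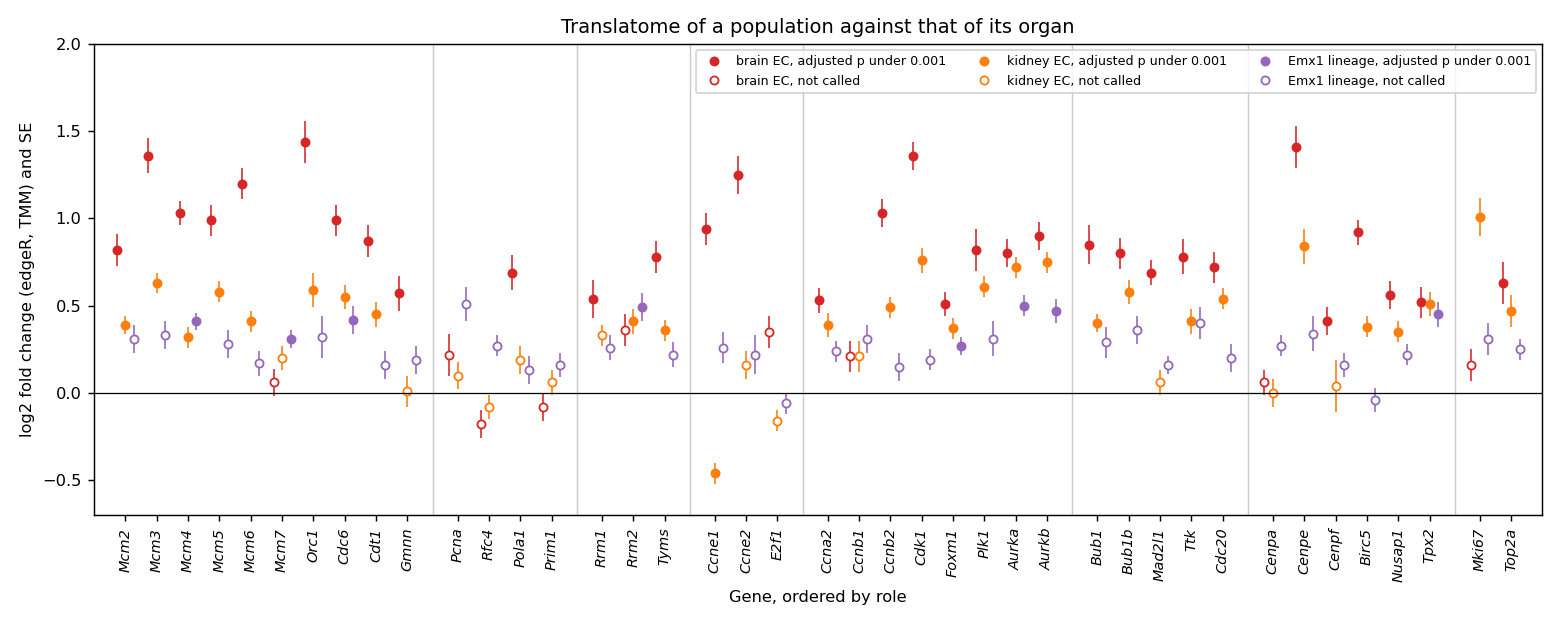
Log2 fold change with its SE of brain EC (red), kidney EC (orange) and the Emx1-lineage (violet) against the translatome of the organ, for the 41 genes ordered by role. Filled points passed an adjusted p under 0.001. Brain EC points lie mostly between 0.5 and 1.5, with Mcm7, Rfc4, Prim1, Cenpa and Mki67 near 0, and Ccne1 is the one filled point below 0, in kidney EC.

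The difference between EC and organ was itself compared between the organs. Of the 41 genes, 10 had the smaller difference in kidney and 1 the larger, against 16.5% and 8.6% of all rows. The 10 were Ccne1 (-1.43 ± 0.11, kidney minus brain), Ccne2 (-1.12), Orc1 (-0.87), Mcm6 (-0.82), Mcm3 (-0.76), Mcm4 (-0.73), Mad2l1 (-0.66), Cdk1 (-0.64), Birc5 (-0.57) and Ccnb2 (-0.56), and the 1 was Mki67 (0.83 ± 0.16, edgeR interaction, adjusted p = 0.00038). The median over all rows was -0.16, so part of each negative value is shared by the typical row. Mki67 lost its call in 7 of the 12 fits that each left out 1 sample, with values from 0.72 to 0.96 over the 12.

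Outside the set, Cdkn1a and Ccnd1 were higher in both EC translatomes. Cdkn1a (p21), an inhibitor of cyclin-dependent kinases, had a mean of 93.3 RPKM in brain EC and 12.3 in the brain translatome (log2 fold change 3.22 ± 0.10, adjusted p = 8.8e-12), and 35.3 against 9.89 RPKM in kidney (2.20 ± 0.17, adjusted p = 8.5e-07). Ccnd1, cyclin D1, had 86.0 against 24.9 RPKM in brain (2.08) and 197.0 against 163.6 in kidney (0.62), and Ccnd3 had 88.6 against 23.1 RPKM in brain (2.21) with no call in kidney (0.03). Ccnd2, cyclin D2, was lower in brain EC (70.4 against 135.2 RPKM, -0.65) and was not called in kidney (-0.52 ± 0.12, adjusted p = 0.0036). The counts that follow stand beside 24.8% higher and 21.4% lower of all rows in brain EC and 16.7% and 15% in kidney EC. Of 37 other replication genes, 17 were higher and 6 lower in brain EC and 13 higher and 1 lower in kidney EC. Of 50 other mitosis genes, 28 were higher and 2 lower in brain EC and 18 higher and 2 lower in kidney EC, led in both by Anln, the anillin of the cleavage furrow (1.62 and 1.05). Among 11 G1 genes, 7 were higher and 2 lower in brain EC and 4 higher in kidney EC, and among 14 inhibitors 5 were higher and 5 lower in brain EC and 3 higher and 2 lower in kidney EC.

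In the Emx1-lineage of the dorsal telencephalon, 8 of the 41 genes were higher than in the translatome of the whole forebrain and none lower, against 9.2% and 12.8% of all rows. At an unadjusted p under 0.05 the count was 35 higher and none lower (edgeR, 25.8% and 25.2% of all rows), 31 were higher at an adjusted p under 0.05 (22.5% of all rows higher and 22.6% lower), with DESeq2 13 were higher and none lower at 0.001 (11.5% and 14.4% of all rows), and 39 of 41 values were above 0, with a median of 0.27 beside 0.00 over all rows. The groups were as labelled by their regional markers: 6 dorsal markers summed to 695 to 713 RPKM against 345 to 357, and 7 ventral markers to 58.3 to 62.0 against 238 to 260. Markers of endothelial cells fell from 117 to 133 RPKM to 11.8 to 14.1, and those of microglia from 23.5 to 25.3 to 1.25 to 1.70.

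The 3 largest among the called genes were Aurka and Aurkb, the Aurora kinases of the spindle poles and of the centromere, and Rrm2. Aurka had 22.0, 25.02 and 22.4 RPKM in the Emx1-lineage against 17.8, 16.9 and 16.0 in the forebrain. Rrm2 had 50.3, 45.7 and 44.1 RPKM against 36.7, 37.8 and 29.5. Aurkb had 32.0, 35.9 and 31.0 RPKM against 27.1, 23.9 and 23.1. No groups overlapped, and the log2 fold changes were 0.50 ± 0.06 (adjusted p = 1.3e-05), 0.49 ± 0.08 (0.00014) and 0.47 ± 0.07 (5e-05).

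The other called genes were Tpx2 (0.45), Cdc6 (0.42), Mcm4 (0.41), Mcm7 (0.31) and Foxm1 (0.27). Pcna had 57.7, 66.2 and 59.2 RPKM against 55.3, 38.8 and 39.1, all above the organ samples, and a log2 fold change of 0.51 ± 0.10 just outside the threshold (adjusted p = 0.0011). Mki67 (33.5, 39.5 and 29.9 RPKM), Top2a (55.0, 58.4 and 53.1), Mcm2 (36.2, 40.3 and 34.8), Cdk1 (24.5, 26.2 and 24.5) and Ccnb1 (6.84, 8.16 and 6.88) were not called, with values from 0.19 to 0.31. By RPKM, 19 of the 41 genes had all Emx1-lineage values above all organ values and none all below, against 20.8% and 30.6% of all rows. Of the genes around the set, 9 of 37 other replication genes and 20 of 50 other mitosis genes were higher, against 9.2% of all rows. Ccnd2 was higher (203.3 against 135.2 RPKM, 0.64), and the inhibitor Cdkn1c (p57) was lower (67.1 against 97.4, -0.48).

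The comparison of the organs gave the most uniform result. In total RNA, 40 of the 41 genes were higher in kidney than in forebrain and none lower, against 26.3% and 27.2% of all rows (edgeR; all 41 were higher at an unadjusted p under 0.05, against 35.9% of all rows, and with DESeq2 at 0.001, against 27.9% higher and 28.7% lower). The median log2 fold change was 0.93 (0.02 over all rows), and in all 41 genes each kidney sample was above each brain sample by RPKM, against 43.7% of all rows. Foxm1 was the gene not called (0.33 ± 0.07, adjusted p = 0.0014). Licensing genes had the highest median (1.28), followed by cyclins, kinases and Foxm1 (0.97), while the 4 fork genes had 0.71.

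Ccne1 led, with 49.1, 43.1 and 43.6 RPKM in the kidney transcriptome against 8.08, 7.76 and 7.13 in the brain transcriptome (2.38 ± 0.08, edgeR, adjusted p = 3.2e-10). Orc1 had 7.68, 7.39 and 8.23 RPKM against 2.50, 2.29 and 2.09 (1.57 ± 0.08). Cdt1, the loader of the Mcm helicase, had 45.8, 46.7 and 43.8 RPKM against 16.1, 15.3 and 14.2 (1.39 ± 0.06). The kidney and brain samples did not overlap in these genes.

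Among the translatomes of the whole organs, 35 genes were higher in kidney and none lower (26.2% and 27.2% of all rows; at an unadjusted p under 0.05, 39 higher and none lower against 35.4% and 35.1% of all rows, and 38 and none with DESeq2 against 27.1% and 27.8%), with a median of 1.03, and 40 had all kidney values above all brain values by RPKM (42.6% of all rows). The first was again Ccne1 (50.2, 46.4 and 45.3 RPKM against 8.76, 7.497 and 7.01, 2.40 ± 0.08), then Cenpf (30.1, 33.9 and 26.2 against 5.59, 4.95 and 4.79, 2.35 ± 0.09) and Orc1 (6.03, 5.81 and 4.81 against 1.58, 1.33 and 1.31, 1.77 ± 0.13). Those not called were Mki67 (-0.03), Mcm7 (0.13), Nusap1 (0.24), Tpx2 (0.32), Rfc4 (0.33) and Pcna (0.51).

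Between the EC translatomes, 35 genes were higher in kidney and none lower (16.9% and 20.1% of all rows; at an unadjusted p under 0.05, 40 higher and none lower against 31% and 32.1% of all rows, and 39 and none with DESeq2 against 21% and 23.1%), with a median of 0.72, and 40 did not overlap by RPKM, with kidney above (33.9% of all rows). Cenpf had 31.5, 20.5 and 20.5 RPKM in kidney EC and 5.26, 5.90 and 5.54 in brain EC (2.08 ± 0.16, adjusted p = 8.5e-07). Ccnb1 had 16.6, 16.3 and 13.7 RPKM against 5.95, 5.36 and 5.89 (1.39 ± 0.09), and Bub1 25.8, 26.7 and 25.9 against 9.68, 9.92 and 10.8 (1.32 ± 0.07). Kidney EC lay above brain EC in every sample of each of these genes, and also in Mki67 (0.92 ± 0.12, adjusted p = 5.2e-05). The whole-organ translatomes entered this set of comparisons as well as those with the transcriptome, EC and the Emx1-lineage, so these comparisons share samples.

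**Figure D5:**
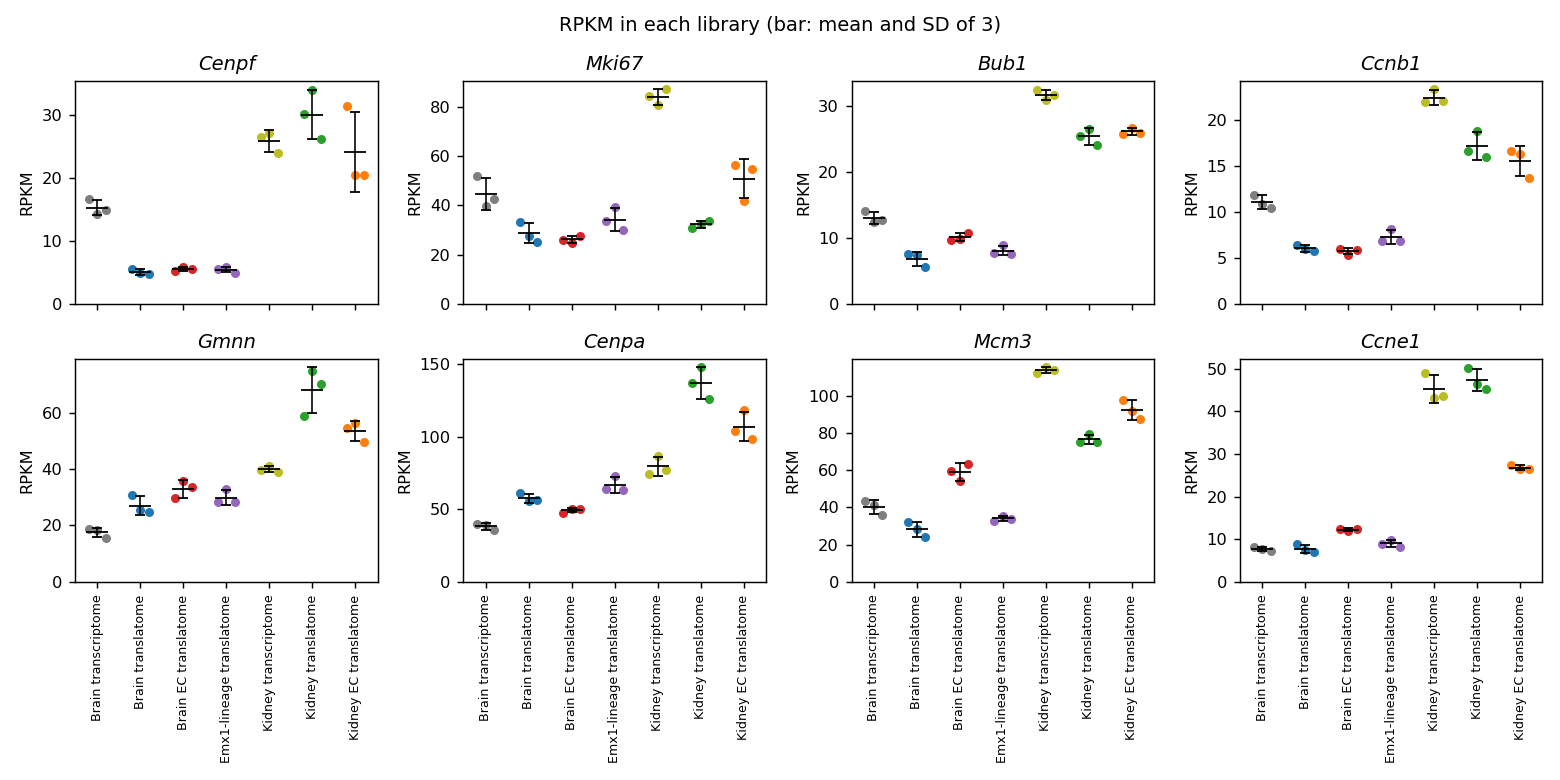
RPKM of Cenpf, Mki67, Bub1, Ccnb1, Gmnn, Cenpa, Mcm3 and Ccne1 in each of the 21 samples, by group. Cenpf is at 14.4 to 16.6 RPKM in the brain transcriptome and at 4.79 to 5.90 RPKM in the translatomes of the forebrain, and Ccne1 is at 26.4 RPKM or more in the kidney samples and at 12.4 RPKM or less in the forebrain samples.

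The inhibitors of the cell cycle did not follow the set. Of 14 inhibitors and pocket proteins, 8 were lower and 2 higher in the kidney than in the brain transcriptome, 7 lower and 3 higher in the translatome, and 6 lower and 1 higher between EC. Of all rows, 27.2% were lower and 26.3% higher in total RNA, 27.2% and 26.2% in the translatome, and 20.1% and 16.9% between EC. The higher counts of the inhibitors were thus not above the share of all rows. Cdkn1b (p27) was lower in the kidney translatome (21.6 against 65.9 RPKM, -1.81), and Cdkn1c was higher (452.2 against 97.4 RPKM, 2.01). Of the other replication genes, 30, 25 and 30 of 37 were higher in kidney in total RNA, in the translatome and in EC. Of the other mitosis genes, 40, 36 and 38 of 50 were higher. Ccnd1 was higher in kidney in all 3 (2.40, 2.52 and 1.15).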

How the data were processed

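RNA sequencing reads of 21 samples in 7 groups of 3 were used as deposited. The deposited counts are whole reads per row, which the authors obtained by mapping with RUM 2.04 to GRCm38 and counting on UCSC refGene models with rpkmforgenes. The deposited RPKM values were computed by the authors from the same reads, and follow the reads on mRNA rows (length derived from reads and RPKM varied by 0.056% over samples, against 0.543% with all reads). Libraries were made with TruSeq RNA v2, which does not mark strand. Groups, replicate numbers and tissue samples came from the labels and the sample list of the study. No sample was left out. Total counts ran from 21760652 to 79231692 reads, and the precision is given as SD over 3 samples or as the SE of a fold change.

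Differences in counts were tested by the quasi-likelihood method of edgeR 4.0.16 (R 4.3.3) with TMM scaling over rows with at least 1 read, on the 6 samples of each of 8 comparisons, and on 12 samples for 2 interactions (kidney difference minus brain difference). Benjamini-Hochberg adjustment ran over all rows of a comparison, with a threshold of 0.001. Alternatives were DESeq2 1.42.0, other scalings and filters, a replicate block, a single sequencing run and leaving out each sample. Steps were checked on simulated data. Figures were drawn with matplotlib 3.10.9.

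The 41 genes, the lists of related genes and markers were chosen with earlier results of these data known. Values in every sample were given for Mki67, Top2a, Pcna, Mcm2, Ccnb1 and Cdk1 and for the 3 called genes with the largest size of change per comparison (mean of at least 5 RPKM in either group, no overlap). From the lists of related genes, the 2 largest called genes per comparison and a set of D-type cyclins, their kinases and inhibitors could be named. Any of the 41 genes could be named. Sample values of Cenpf in kidney, of Gmnn and Cenpa in brain, of Orc1 in brain EC and of Ccne1 in kidney EC, and the 5 printed promoters, were added after their values were seen. Promoters came from RefSeq (GRCm38.p6) and gene positions from GENCODE vM21 on the same build.

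Transcriptome and translatome samples of 1 number came from the same tissue sample, per the sample list, and their deviations from the group means correlated in brain (0.60, 0.51 and 0.59) and kidney (0.62, 0.53 and 0.57). Brain and kidney EC samples of 1 number correlated less (0.26, 0.19 and 0.16), and the block gave 36 genes higher in kidney EC. Without the block the count was 35, with 16.9% of all rows higher. Brain and kidney transcriptome samples of 1 number had 0.455, -0.106 and 0.247, and kidney sample 3 had 0.47 with brain sample 2. For the translatomes of the organs the values were 0.335, -0.08 and 0.178, and 0.309.

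Reads of overlapping genes on the opposite strand cannot be told apart, which touches Mcm7, Orc1, Rfc4, Ccne2, Ccna2, Plk1, Cdc20 and Nusap1, and Pcna, Tyms, Ccnb1 and Ccnb2 have pseudogene copies.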

Additional observations from a re-analysis of the deposited data

Results flagged for a closer look

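The difference between translatome and transcriptome was not alike in both organs for Cenpf (1.79, kidney log2 fold change minus brain log2 fold change, edgeR interaction test) and Foxm1 (0.57). In that direction 4.12% of all rows were called, so the count of genes of the set was near the share of all rows. Both genes were lower in the brain translatome, by -1.55 and -0.77, and had values of 0.22 and -0.22 in kidney. With the pairing of tissue samples in the fit, Bub1 (0.61), Ccne2 (0.61), Ccnb1 (0.48), Cenpe (0.39), E2f1 (0.39), Ccna2 (0.36), Mki67 (-0.75), Tpx2 (-0.30) and Mcm7 (-0.28) were called as well. That fit called 9.84% of all rows with the higher value in kidney and 7.3% with the higher value in brain.

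The difference between EC and organ translatome was smaller in kidney than in brain for 10 genes by the same test, where 16.5% of all rows were called on that side. They were Ccne1 (-1.43), Ccne2 (-1.12), Orc1 (-0.87), Mcm6 (-0.82), Mcm3 (-0.76), Mcm4 (-0.73), Mad2l1 (-0.66), Cdk1 (-0.64), Birc5 (-0.57) and Ccnb2 (-0.56). It was larger in kidney for Mki67 (0.83), the one gene of the set on that side, where 8.6% of all rows were called. The median over all rows was -0.16 with TMM. In these EC comparisons the sequencing run changed with the group, so that run and group cannot be told apart.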

How the results depend on the processing

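Of the values computed under other settings, 5400 kept their direction and side of the threshold, 84 that were called under neither setting changed sign, 196 passed the threshold, 221 no longer passed it and 3 called values reversed. The reversed values were Mcm4 (-0.05), Tyms (-0.01) and Nusap1 (-0.02) in kidney EC with scaling by total reads; that scaling moved the median row there by -0.37, from -0.04 to -0.41. It gave 5 higher and 3 lower genes in kidney EC (8.26% and 29.9% of all rows), 22 higher and 1 lower in brain EC (17.8% and 31.4%), and 5 higher in the Emx1-lineage. In the Emx1-lineage, 31 were higher at an adjusted p under 0.05 (22.5% of all rows), 13 with DESeq2 (11.5%), 4 with a filter of 10 reads in 3 samples and 5 with the replicate block. The main fit called 9.2% of all rows higher there. The counts of 4 and 5 of 41 genes, also that with total reads, lay near this share. In brain, 28 genes were lower in the translatome at 0.05, against 28.1% of all rows. Within 1 run the median log2 fold change of the 41 genes was -0.42 in brain and -0.44 in kidney. For the organ difference in translatome against transcriptome, 7 and 3 were called at 0.05 (12.6% and 10.5% of all rows), 7 and 2 with DESeq2, and 8 and 3 with the replicate block (9.84% and 7.3% of all rows). For the organ difference in EC against organ, 21 were lower at 0.05, against 27% of all rows. The replicate block changed no other count by over 1.5 times. Where counts moved, the cause was not tested.

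With each sample left out in turn, the brain translatome had 10 to 20 lower genes (10 without brain transcriptome replicate 1), the kidney translatome 3 to 4 higher and 20 to 22 lower, brain EC 27 to 32 higher, and kidney EC 16 to 26 higher (16 without kidney translatome replicate 3 or kidney EC replicate 1). The Emx1-lineage had 5 to 14 higher (14 without brain translatome replicate 1, 5 without brain translatome replicate 3 or Emx1 replicate 2). The organ difference in translatome against transcriptome had 2 to 3 and 0 to 1 calls (1 without brain transcriptome replicate 1 or brain translatome replicate 3), and that in EC against organ had 0 to 1 and 9 to 13. Median levels with TMM scaling were 35.3 RPKM in brain EC, 47.3 in the kidney transcriptome, 38.5 in the kidney translatome and 49.4 in kidney EC. The mean of kidney EC then stood above that of the kidney transcriptome, but their samples overlapped (48.19 to 51.67 and 43.05 to 50.26). Kidney EC samples lay above those of the kidney translatome (37.54 to 39.31). Brain EC samples (33.19 to 37.53) lay above those of the brain transcriptome (24.63 to 28.43). Depth was lowest for Orc1, the least abundant gene, with 122 reads in 2 brain translatome samples.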
